A study of Mus musculus with 31 samples.

Results

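A set of 10 genes typical of the choroid plexus were followed across 31 arrays of mouse hippocampus: Ttr, Kl, Folr1, Kcne2, Clic6, Aqp1, Otx2, Slc4a5, Prlr and Enpp2. Their probes were found through the RefSeq transcript that the array files give for each probe, which gave 15 probes for the 10 genes, of 41174 probes on the array and 23031 genes tested. The mice were adult C57BL/6 animals of both sexes. Controls, called dflox control, carried floxed alleles of the glucocorticoid receptor (GR) and of the mineralocorticoid receptor (MR) without the recombinase. GREmx1-cre mice lacked GR, MREmx1-cre mice lacked MR and GRMREmx1-cre mice lacked both, through a Cre recombinase driven by Emx1, a gene of the dorsal forebrain. Each sex had 4 arrays of each genotype, except 3 of male GRMREmx1-cre; the series' design counts 3 to 4 mice for a genotype. Total RNA came from the whole hippocampus, and the labels do not say whether the Emx1-driven recombinase acts in the choroid plexus.

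The choroid plexus is a fold of epithelium and vessels that hangs in the brain ventricles and secretes cerebrospinal fluid. In the lateral ventricle it lies against the hippocampus, along the fimbria, so a dissected hippocampus may carry more or less of it. Its epithelium makes some transcripts in very large amounts, above all Ttr, which allows a small amount of tissue to be seen in RNA of a whole region. In such bulk RNA, fewer cells of a type and less RNA per cell cannot be told apart.

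The 10 genes have different tasks in that epithelium. Ttr encodes transthyretin, which carries thyroxine and retinol-binding protein, and Enpp2 encodes autotaxin, a secreted enzyme that makes lysophosphatidic acid and that oligodendrocytes make too. Kl encodes klotho, the co-receptor of a fibroblast growth factor, Folr1 a folate receptor and Prlr the prolactin receptor. Aqp1 encodes a water channel, Slc4a5 a bicarbonate cotransporter, Kcne2 a potassium channel subunit and Clic6 a member of the chloride intracellular channel family. Otx2 encodes a homeobox transcription factor that is needed for choroid plexus development.

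Because the genes moved together across arrays, their promoters were read from the RefSeq promoter table (build GRCm38.p6), which held 6 of the 10 genes with 12 start sites; the 250 bases before each start were searched on both strands. The letters TAATCC, which homeobox factors of the OTX type bind, occurred at 1 of the 12 start sites, one of Otx2, against 6.25% of all 32851 promoters of that length. The half-sites AGAACA and TGTTCT with 3 bases between them, the palindromic element of corticosteroid receptors, occurred in 0 of the 6 genes and in 3 of all promoters. 3 of these promoters are shown, 5′ to 3′: Otx2, with the match on the opposite strand in capitals, at chr14:48665110-48665359 on the minus strand; Kl, which differed by genotype at equal Ttr, at chr5:150952357-150952606 on the plus strand; and Kcne2, which had the steepest slope on Ttr over all arrays, at chr16:92292139-92292388 on the plus strand.
Otx2: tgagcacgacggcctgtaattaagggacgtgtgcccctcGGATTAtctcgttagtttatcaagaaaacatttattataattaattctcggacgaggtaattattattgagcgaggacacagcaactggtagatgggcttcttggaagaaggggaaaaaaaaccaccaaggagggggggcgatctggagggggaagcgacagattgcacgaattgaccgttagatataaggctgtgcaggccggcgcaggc
Kl: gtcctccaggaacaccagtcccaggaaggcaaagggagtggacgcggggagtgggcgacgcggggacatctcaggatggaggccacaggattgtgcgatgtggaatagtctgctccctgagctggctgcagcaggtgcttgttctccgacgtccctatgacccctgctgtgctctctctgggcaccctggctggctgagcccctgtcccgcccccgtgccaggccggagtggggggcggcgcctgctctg
Kcne2: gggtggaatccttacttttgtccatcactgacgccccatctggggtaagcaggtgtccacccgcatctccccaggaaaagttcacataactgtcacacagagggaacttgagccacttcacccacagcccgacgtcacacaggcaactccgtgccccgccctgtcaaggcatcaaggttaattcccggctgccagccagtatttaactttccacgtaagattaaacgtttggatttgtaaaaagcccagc

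All values are log2 of the scanner's processed signal minus the log2 of that array's 75th percentile, so 0 is the level that 25% of probes exceed and a step of 1 is a doubling. That percentile lay between 821 and 1159 signal units, and 66.7% to 77.4% of probes per array were well above background. A gene with several probes is represented by its brightest one. All 15 probes passed the filter on dim probes, the 10 that were tested were well above background on all 31 arrays, and none was saturated. The precision of each comparison is limited by 3 or 4 arrays a group. Nr3c1, the gene of GR, lay between -0.66 and 0.09 on the arrays labelled GREmx1-cre and GRMREmx1-cre. It lay between 1.40 and 1.79 in controls and between 2.08 and 2.28, above every control, on arrays labelled MREmx1-cre. Nr3c2, the gene of MR, lay between -3.65 and -3.36 in controls and between -4.01 and -3.71, below every control, on arrays labelled GRMREmx1-cre. On arrays labelled MREmx1-cre it was at -3.76 to -3.46 in males, which overlapped the controls. In females it was at -3.02 to -2.83, above every control, against the label. On arrays labelled GREmx1-cre, which should keep MR, it was above every control too. It lay there at -3.15 to -3.04 in males and -3.05 to -2.93 in females, and the female range overlapped that of female MREmx1-cre. The place of this probe relative to the deleted exons was not stated, so it does not check the label; the groups are those the labels give. No slide held more than 1 group, and each group had its own scan date entry in the file headers. The effects of slide, scan and group therefore cannot be told apart in either sex. No slide or scan held both sexes, so each comparison of the sexes is also one between slides and between scans.

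Ttr separated the arrays into 25 with a high level and 6 with a low one. In male controls it was 4.74, 3.53, 5.0 and 3.59, and in male GREmx1-cre 3.49, 3.97, 3.99 and 4.46. Male MREmx1-cre arrays were at 3.94, -2.58, 4.77 and 4.08, and male GRMREmx1-cre arrays at 3.62, 3.38 and 3.86. A single male array, replicate 2 of MREmx1-cre, was therefore far below the rest. In female controls Ttr was -2.21, 4.55, 3.36 and 4.00, and in female GREmx1-cre 0.41, 4.93, 3.83 and 3.54. Female MREmx1-cre arrays were at 4.21, 4.33, 3.26 and -2.02, and female GRMREmx1-cre arrays at -1.86, 4.05, -2.06 and 3.54. Each female group held at least 1 low array, and female GRMREmx1-cre held 2.

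The widest gap in Ttr over all arrays ran from 0.41 to 3.26 and left 25 arrays above it, with a median of 3.97 and a highest value of 5.0. Of the 6 arrays below it, 1 was among the 15 male and 5 were among the 16 female arrays. They came from 5 of the 8 groups, controls included. On the tested probe of each of the other 9 genes, the same 6 arrays lay below the other 25, with no overlap. One further probe of Prlr overlapped between both sets of arrays.

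The technical values of these 6 arrays overlapped those of the rest. Their 75th percentiles were 904 to 1045 against 821 to 1159 on the other 25, and 66.7% to 74.1% of their probes were well above background against 68.2% to 77.4%, so that the lowest share was among the 6. The scanner's outlier flags numbered 70 to 98 spots on them and 53 to 188 on the others. Their median correlation with the other arrays of their group, over all genes, was 0.990 to 0.992, against 0.986 to 0.995. Because these arrays stand apart, results are given with and without them.

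**Figure D1:**
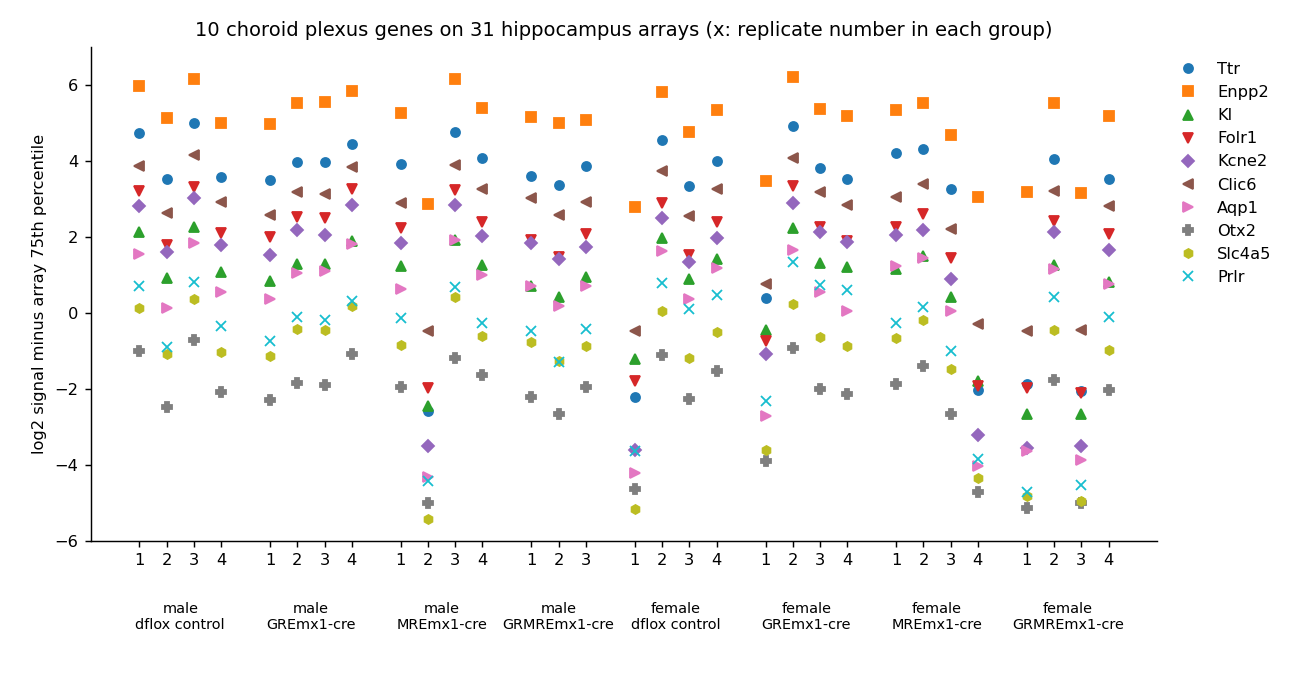
Log2 signal minus the array's 75th percentile (vertical axis) of the 10 genes, 1 symbol per gene, on each of the 31 arrays, grouped by sex and genotype with the replicate number below. On 6 arrays all 10 genes drop together, with Ttr from 4.05 or 3.54 on the other female GRMREmx1-cre arrays to -1.86 and -2.06 on replicates 1 and 3.

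Ttr spanned 7.58 on the log2 scale, a 191-fold range. Among the transporters and channels, Kcne2 spanned 99.2-fold, Aqp1 75.9-fold, Slc4a5 57.1-fold and Clic6 25-fold. Among the receptors, Prlr spanned 66.7-fold, Folr1 44.1-fold and Kl 30.9-fold. The transcription factor Otx2 spanned 21.2-fold. Enpp2 had the narrowest range, 10.7-fold. The low arrays kept Enpp2 at 2.79 to 3.48, against 4.69 to 6.21 on the other 25.

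The array from female GREmx1-cre replicate 1 was intermediate. It had Ttr at 0.41, Aqp1 at -2.71, Kcne2 at -1.08, Folr1 at -0.75, Slc4a5 at -3.61 and Otx2 at -3.89. On the other 5 low arrays Aqp1 lay between -4.33 and -3.62 and Kcne2 between -3.60 and -3.20. Thus on all 10 genes this array lay above the other 5 low arrays and below the 25 high ones.

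Spread inside the groups was the most marked feature of these genes. Ttr had the largest within-group standard deviation of all 23031 genes tested, 2.46 on the log2 scale, where the median gene had 0.14. Kcne2 ranked 3 with 2.18, Aqp1 ranked 6 with 2.09, Slc4a5 ranked 14, Folr1 16 and Prlr 18. Clic6 ranked 39, Kl 59, Otx2 72 and Enpp2 226. Among the 10 most variable genes with a name were also Pon1 at 2.15, which encodes the enzyme paraoxonase, and Tmem72 at 2.12. So were Steap1 at 1.92, Wfdc2 at 1.91, and Cldn2 at 1.82, a tight-junction protein of the plexus epithelium. Ccl21a, a chemokine whose array probes can hybridise with near-identical gene copies, had 2.0.

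Without the 6 arrays the within-group standard deviation of the 10 genes fell to between 0.45 for Enpp2 and 0.66 for Aqp1. That still placed them at ranks 841 to 2179 of 23031, with a median gene at 0.13. Ccl21a was at 1.87 without these arrays, whereas Pon1 was at 0.82, Steap1 at 0.69, Wfdc2 at 0.64, Tmem72 at 0.63 and Cldn2 at 0.62.

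How closely the other 9 genes followed Ttr was tested with limma, with the 8 group means and the level of Ttr in 1 model, so that the slope rests on differences inside groups. A slope of 1 means that a gene changes by the same factor as Ttr. All 9 rose with Ttr, where 3.81% of the 23030 genes did and 0.308% fell. Slopes over 31 arrays ran from 0.42 ± 0.02 (SE) for Enpp2 to 0.88 ± 0.01 for Kcne2. Over the 25 high arrays alone all 9 rose too, against a background of 3.01% rising and 0.274% falling.

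In those 25 arrays the slopes were higher and, except for Aqp1, closer to 1. Aqp1 had 1.16 ± 0.06, Folr1 1.07 ± 0.05, Slc4a5 1.05 ± 0.06 and Otx2 1.02 ± 0.06. Kcne2 had 0.99 ± 0.06, Clic6 0.98 ± 0.05, Kl 0.90 ± 0.04, Prlr 0.90 ± 0.09 and Enpp2 0.79 ± 0.04. Kl and Otx2, at 0.55 ± 0.02 and 0.53 ± 0.02 over all 31 arrays, and Enpp2 and Clic6, at 0.42 ± 0.02 and 0.60 ± 0.02, had the slopes that were lower by the largest factor with all 31 arrays.

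Correlations are given in the 25 high arrays, since the arrays fall into separate sets. After group means were taken off, Pearson's r with Ttr was 0.99 for Kl, 0.98 for Folr1, Clic6, Aqp1 and Enpp2, 0.97 for Kcne2, Otx2 and Slc4a5 and 0.93 for Prlr. Spearman's rho ran from 0.92 for Prlr to 0.98 for Folr1. Each of these 9 correlations had a permutation p of 1e-05, the smallest that the 100000 permutations can give, also after Benjamini-Hochberg adjustment over the 9. Without the 2 arrays farthest from the median Ttr, r was 0.93 for Prlr and 0.96 to 0.99 for the other 8.

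**Figure D2:**
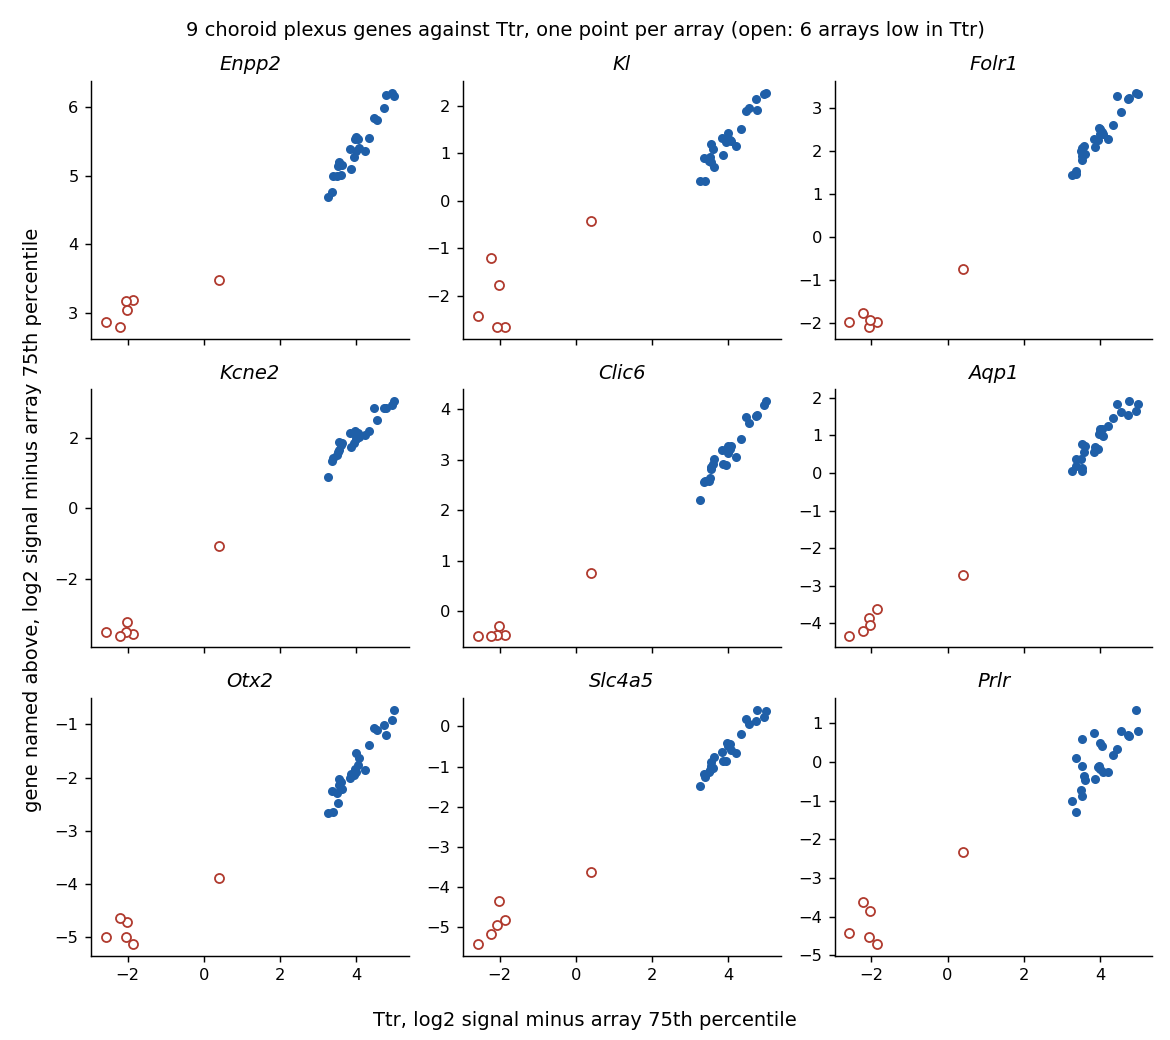
Each panel plots the log2 signal of 1 gene (vertical axis) against that of Ttr (horizontal axis), both minus the array's 75th percentile, with 1 point per array; filled points are the 25 high arrays and open points the 6 low ones. Among filled points the genes climb with Ttr, with r from 0.93 for Prlr to 0.99 for Kl, and the open points lie apart at the lower left.

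Across all genes, 877 rose with Ttr over 31 arrays and 71 fell, and 693 and 63 did so over the 25. In a list of 46 other choroid plexus genes, 39 passed the filter on dim probes and 35 of them rose, in both sets of arrays. That list was chosen with earlier results of these data known, so its count describes these arrays and is no independent evidence. Of it, F5, coagulation factor V, had a slope of 0.70 ± 0.02 over 31 arrays, Tmem72 0.85 ± 0.03, Wfdc2 0.76 ± 0.03 and Ecrg4, a secreted peptide precursor, 0.60 ± 0.02. In the 25 arrays these slopes were 1.0 ± 0.07, 1.09 ± 0.06, 1.12 ± 0.06 and 1.0 ± 0.04. F5 and Tmem72 were well above background on 26 and 25 arrays, so their slopes over 31 arrays rest partly on levels near background. Its mean level was -1.75 to -1.26 on the 6 low arrays and -0.32 to 0.90 on the others.

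The list for ependymal cells, the ciliated cells that line the ventricle, came next, with 15 of 20 genes rising over 31 arrays and 11 of 20 over the 25. Whether these transcripts came from ependymal cells or from the plexus itself was not tested. Pifo, a gene of cilia, had a slope of 0.27 ± 0.03, Cfap126 0.18 ± 0.02, Tekt1, a component of cilia, 0.16 ± 0.02 and Dynlrb2, a dynein light chain, 0.17 ± 0.02. In the 25 arrays these slopes were 0.75 ± 0.07, 0.54 ± 0.06, 0.51 ± 0.04 and 0.46 ± 0.08. The mean level of the list was -1.37 to -1.04 on the low arrays and -1.17 to 0.03 on the others, so the 2 ranges overlapped. The median slope of the list was 0.34 in the 25 arrays, against 0.69 for the other plexus genes and -0.01 for all genes.

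Few markers of other neighbours were called. Of 22 genes of the leptomeninges and fibroblasts, 2 rose in both sets: Igf2, an insulin-like growth factor, at 0.21 ± 0.02, and Lum, a matrix proteoglycan, at 0.10 ± 0.01, and at 0.57 ± 0.07 and 0.27 ± 0.05 in the 25 arrays. In that list 6 of 22 had an unadjusted p under 0.05 over 31 arrays, all 6 with a rising slope, and the median slope in the 25 arrays was 0.12, against -0.01 for all genes. Emcn, a surface protein of endothelium, was the 1 riser of 14 endothelial genes, at 0.05 ± 0.01. Ppp1r1b was the 1 riser of 11 striatal and septal genes, at 0.10 ± 0.02, and Patj and Lef1 were the 2 of 15 thalamic genes, at 0.08 ± 0.02 and 0.04 ± 0.01, with 0 of 15 in the 25 arrays. At an unadjusted p under 0.05 over 31 arrays there were 1 of the 14 endothelial, 2 of the 11 striatal and septal and 3 of the 15 thalamic genes. None of the 15 lists had a gene that fell.

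By limma, 0 genes rose or fell in 9 lists of 98 tested genes, 7 of which had an unadjusted p under 0.05, 2 of these with a rising slope. The lists held 11 genes of pericytes and smooth muscle, 9 of border macrophages, 4 of red blood cells, 17 of myelinating oligodendrocytes, 2 of the habenula, 11 of neocortex, 18 of hippocampal neurons, 13 of microglia and 13 of astrocytes. Enpp2 is made by oligodendrocytes too, and the slopes of their markers were -0.02 ± 0.01 for Ugt8a, a myelin lipid enzyme, and -0.01 ± 0.01 for Cldn11, a myelin tight-junction protein. The summary level of oligodendrocyte markers was 1.93 to 2.06 on the low arrays, within 1.65 to 2.11 on the others. Hippocampal neuron markers were at 0.63 to 1.54 and at 0.55 to 1.47. These 18 markers held 4 of the 7 genes with an unadjusted p under 0.05 in limma over all arrays. All 4 had a falling slope, and 0 of the 18 were called. Rgs14, a gene of area CA2, was the neuronal marker with the strongest slope statistic, at -0.03 ± 0.01, which was not called.

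**Figure D3:**
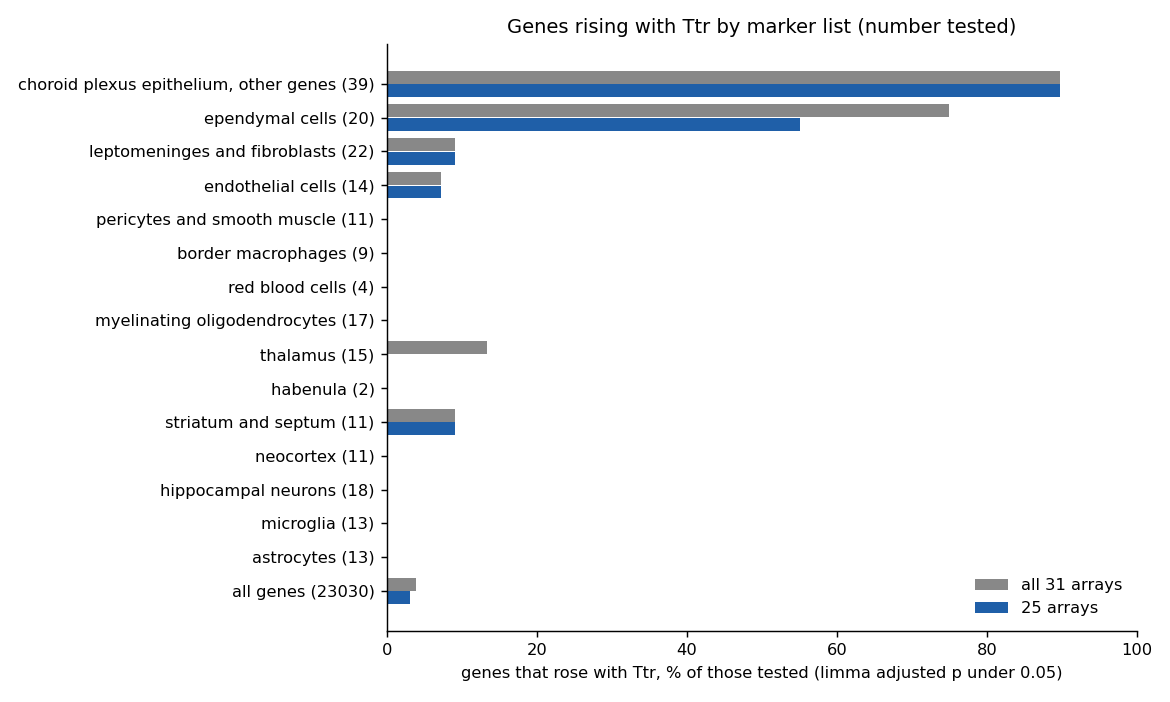
Horizontal bars give the share of tested genes, in %, that rose with Ttr at a limma adjusted p under 0.05, for each marker list with its number of tested genes, in all 31 arrays (grey) and in the 25 high arrays (blue). Other choroid plexus genes (35 of 39) and ependymal genes (15 and 11 of 20) stand well above the share of all genes, 3.81% and 3.01%.

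Named genes other than the 10 plexus genes were ranked by Pearson's r with Ttr over 31 arrays after group means were taken off. The 6 low arrays dominate that r, so the r of the 25 arrays is given beside it. F5 led these other genes with 0.99, and 0.96 in the 25 arrays. Of the plexus genes left out of this ranking, Kcne2, Aqp1 and Folr1 had a higher r than F5 over 31 arrays. Steap1, Ecrg4, Tmem72 and Wfdc2 followed, each at 0.99, with 0.99, 0.99, 0.97 and 0.97 in the 25. Cldn2 and Prr32 had 0.98, and Krt18, a keratin of simple epithelia, 0.98. Sostdc1, a secreted inhibitor of bone morphogenetic protein signalling, and Col8a1, a collagen, had 0.97.

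The remaining 10 of the 20 had r from 0.96 to 0.97. They were Wdr86, Pon1, Trpv4, an ion channel that responds to osmotic change, Lbp, which binds bacterial lipopolysaccharide, Smim22, Crb3, a protein of apical cell polarity, Col17a1, Rbm47, Pla2g5, a secreted phospholipase, and Wdr72. In the 25 arrays 9 of these 10 had r between 0.93 and 0.98, and Pon1 had 0.81. F5, Tmem72, Pon1, Crb3, Col17a1, Rbm47 and Wdr72 were well above background on 25 to 27 arrays only, so that on most low arrays their level is no more than an upper bound.

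At the other end the 10 lowest r ran from -0.90 for Spatc1 to -0.73 for Crim1. Over 31 arrays Spatc1 fell by 0.19 ± 0.02 per doubling of Ttr, Inava by 0.14 ± 0.02, 4930449E01Rik by 0.12 ± 0.02 and Lurap1l by 0.11 ± 0.01. Ydjc fell by 0.08 ± 0.01, Sox17, an endothelial transcription factor, by 0.07 ± 0.01, Eid2b by 0.05 ± 0.01, and Abi1, Rnf26 and Crim1 by 0.03 ± 0.01 each. In the 25 arrays Inava fell by 0.49 ± 0.06, Spatc1 by 0.38 ± 0.08, 4930449E01Rik by 0.37 ± 0.08, Sox17 by 0.24 ± 0.06, Ydjc by 0.23 ± 0.05, Eid2b by 0.18 ± 0.04 and Rnf26 by 0.11 ± 0.02. Lurap1l, Abi1 and Crim1 were not called there, at -0.19 ± 0.07, -0.09 ± 0.03 and -0.03 ± 0.03.

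The comparison between genotypes asked whether loss of either receptor went with another level of these genes. It used limma on all 31 arrays with 8 group means, averaged both sexes and adjusted p-values over 23031 genes; the 3 comparisons share the same 8 control arrays. No choroid plexus gene was called in any of them. In GREmx1-cre 0 of 10 were called, where 7.64% of all genes were, in MREmx1-cre 0 of 10 against 21.9% and in GRMREmx1-cre 0 of 10 against 23.5%. At an unadjusted p under 0.05 the count was 0 in all 3. A test for any difference among the 8 groups called 0 of 10, with 0 at an unadjusted p under 0.05, where 50.5% of all genes were called. Without the 6 arrays that test also called 0 of 10, with 1 at an unadjusted p under 0.05, against 40.7% of all genes.

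Most of these differences were smaller than their standard errors or close to them. In GREmx1-cre the 10 genes had a median of 0.17, with Ttr at 0.26 ± 1.18 (SE). In MREmx1-cre the median was -0.65, with Ttr at -0.82 ± 1.18, and in GRMREmx1-cre -0.93, with Ttr at -1.05 ± 1.23. The medians of all genes were 0.00, 0.03 and -0.02. Kl had the most negative value in GRMREmx1-cre, -1.24 ± 0.69.

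Without the 6 arrays the medians of the 10 genes were 0.01, -0.12 and -0.38, so the values in MREmx1-cre and GRMREmx1-cre moved by more than 1.5 times. Ttr was then at -0.05 ± 0.29 in GREmx1-cre, 0.01 ± 0.30 in MREmx1-cre and -0.38 ± 0.32 in GRMREmx1-cre. Again 0 of 10 were called in each, against 7.32%, 19.7% and 19.8% of all genes, and 1 gene in GRMREmx1-cre was at an unadjusted p under 0.05: Kl, at -0.64 ± 0.29 with an adjusted p of 0.13 by limma.

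Between the sexes, females minus males averaged over genotypes, the median of the 10 genes was -0.93 with all arrays and -0.07 without the 6. Ttr was at -1.35 ± 0.85 and then at -0.07 ± 0.22. Neither fit called any of the 10 genes, against 16.0% and 10.4% of all genes, with 0 and 1 at an unadjusted p under 0.05. The 1 was Prlr, at 0.47 ± 0.21, which was higher in females.

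**Figure D4:**
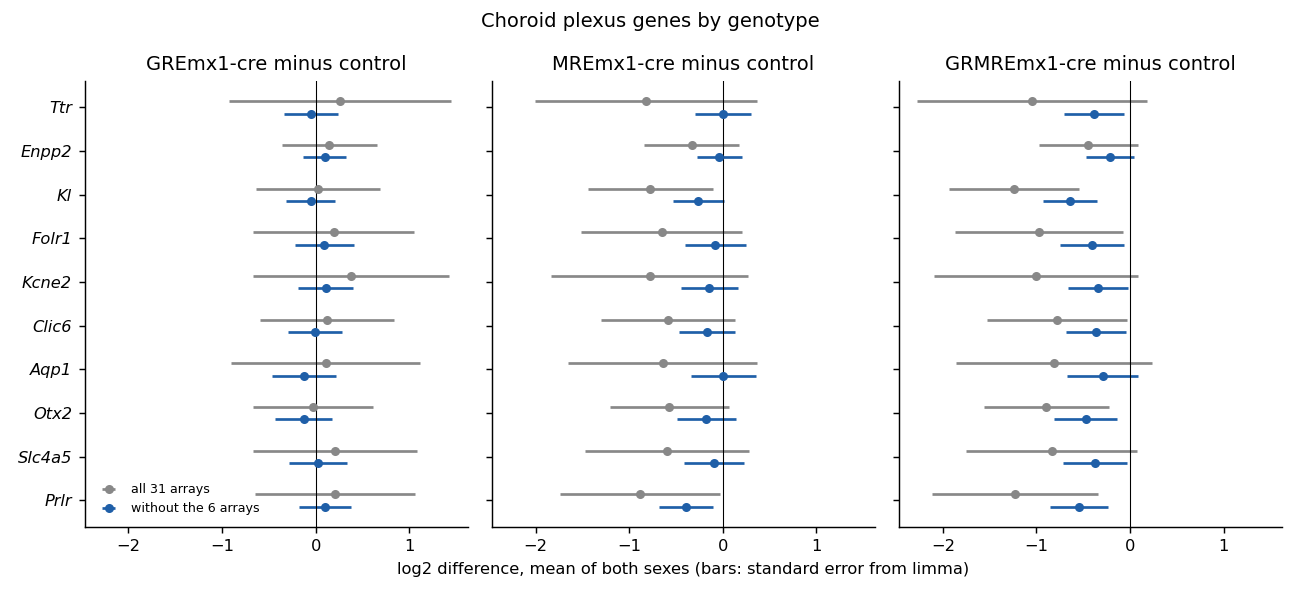
Log2 difference from controls (horizontal axis, mean of both sexes, bars are the standard error from limma) of the 10 genes in each mutant genotype, with all 31 arrays (grey) and without the 6 low arrays (blue). Leaving out the 6 arrays moves Ttr in GRMREmx1-cre from -1.05 to -0.38 and its standard error from 1.23 to 0.32.

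With Ttr as a covariate the same comparisons ask whether a gene differed beyond the common movement of the plexus genes. Kl fell at equal Ttr in GRMREmx1-cre, and in MREmx1-cre in the fit without the 6 arrays but not with all arrays. Each gene's level can be moved along its slope to the median Ttr of the 25 high arrays, 3.97, and at that point Kl was at 1.31 to 1.44 in male controls and 1.40 to 1.44 in female controls. In male GRMREmx1-cre it was at 0.95 to 1.06 and in the 2 female ones at 1.19 and 1.2. Male MREmx1-cre arrays were at 1.16 to 1.27 and female ones at 0.93 to 1.18. No array of these 4 groups reached the controls of its sex. In GREmx1-cre Kl was at 1.26 to 1.45 in males and 1.38 to 1.59 in females, which overlapped the controls.

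In limma the difference of Kl from controls in GRMREmx1-cre was -0.67 ± 0.14 with all arrays (adjusted p = 0.0010) and -0.30 ± 0.05 without the 6 (adjusted p = 0.00041), so the low arrays more than doubled its size. In MREmx1-cre it was -0.32 ± 0.14 with all arrays, with an adjusted p of 0.096 by limma, and it fell by 0.27 ± 0.05 without the 6 (adjusted p = 0.00040). The value in GREmx1-cre was -0.12 ± 0.13 with all arrays and 0.00 ± 0.05 without. By sex, without the 6 arrays, Kl fell in GRMREmx1-cre by 0.37 ± 0.07 in males and by 0.23 ± 0.08 in females. The female call rests on 2 mutant arrays and was close to the threshold (limma adjusted p = 0.046). In MREmx1-cre, without the 6 arrays, Kl was at -0.17 ± 0.06 in males, not called, and fell by 0.37 ± 0.07 in females. The difference between the sexes was not called. These fits called 18.9% and 18.1% of all genes in male and female GRMREmx1-cre and 13.2% in female MREmx1-cre. With all arrays the call over both sexes in GRMREmx1-cre held in 31 of 31 fits that each left out 1 array, but the call in males alone held in 11 of 31. The call in females alone was lost without replicate 1 of the female controls, at -0.46 (limma adjusted p = 0.074).

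Prlr was higher in females at equal Ttr, though males and females were on different slides and scans. Its levels at the median Ttr ran from -0.76 to 0.01 on the 14 male arrays and from -0.48 to 0.98 on the 11 female ones. Female controls were at 0.28 to 0.64, female GREmx1-cre at 0.48 to 0.98 and female GRMREmx1-cre at 0.28 and 0.34, all above every male array. Female MREmx1-cre, at -0.48 to -0.16, lay within the male range. The difference of females from males was 0.44 ± 0.12 with all arrays (limma adjusted p = 0.016) and 0.53 ± 0.08 without the 6 (adjusted p = 0.00086), averaged over genotypes.

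In female MREmx1-cre Prlr fell at equal Ttr by 0.69 ± 0.22 with all arrays (limma adjusted p = 0.032) and by 0.79 ± 0.17 without the 6 (adjusted p = 0.0026). The call with all arrays held in 25 of 31 fits that left out 1 array and was lost without replicate 1, 3 or 4 of the female controls or replicate 1, 2 or 3 of female MREmx1-cre. It was also lost with normexp background correction on all spots, at -0.63 (limma, adjusted p = 0.18), but not with the spots whose background exceeded their signal left out. Of all genes, 16.2% and 13.2% were called in these 2 fits. In males the value was 0.08 ± 0.22 and -0.01 ± 0.15. Over both sexes Prlr was called in MREmx1-cre without the 6 arrays, at -0.40 ± 0.11, where 20.6% of all genes were. With all arrays it was not called over both sexes. The difference between the sexes was -0.77 ± 0.31 and -0.78 ± 0.23, not called by limma, with adjusted p-values of 0.24 and 0.091, where 3.53% and 2.53% of all genes were called. All 3 probes of Prlr, fitted on their own, gave a fall in female MREmx1-cre, from 0.69 ± 0.22 to 0.90 ± 0.17. In GRMREmx1-cre Prlr fell by 0.49 ± 0.16 over both sexes (limma adjusted p = 0.032), which was lost without the 6 arrays, at -0.20 ± 0.13 (adjusted p = 0.29). It was also lost in 7 of 31 fits without 1 array: male control 1, 3 or 4, male GRMREmx1-cre 2, female control 1 and female GRMREmx1-cre 1 or 3.

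Aqp1 was the third gene that differed at equal Ttr. In female GREmx1-cre it fell by 0.49 ± 0.15 with all arrays (limma adjusted p = 0.041) and by 0.46 ± 0.11 without the 6 (adjusted p = 0.021), where 7.57% and 5.39% of all genes were called. With all arrays the call was lost with the replicate block (adjusted p = 0.055) and in 6 of 31 fits without 1 array, namely replicate 1, 2 or 4 of the female controls and replicate 1, 3 or 4 of female GREmx1-cre. At the median Ttr it was at 0.54 to 0.71 in female GREmx1-cre and at 0.96 to 1.14 in female controls. Male GREmx1-cre arrays were at 0.92 to 1.26, and male controls at 0.64 to 1.0, so these 2 groups overlapped, with male GREmx1-cre mostly the higher. The value in males was 0.34 ± 0.10 without the 6 arrays, not called, where 5.64% of all genes were. The difference between the sexes was -0.80 ± 0.15 (adjusted p = 0.027), with 0.686% of all genes called, against -0.76 ± 0.21 with all arrays (adjusted p = 0.051), with 2.53% called.

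Over the 9 genes these calls amounted to 0 in GREmx1-cre, 0 in MREmx1-cre and 2 in GRMREmx1-cre over both sexes with all arrays, against 7.78%, 22.2% and 24.4% of all genes with Ttr as covariate. Without the 6 arrays they were 0, 2 and 1, against 7.77%, 20.6% and 20.1%. Between the sexes 1 of 9 was called in either fit, against 12.2% and 10.6%. In GREmx1-cre, 0 and 3 of the 9 had an unadjusted p under 0.05, and in MREmx1-cre with all arrays 1 had. Shares of this size mean that a few calls among 9 genes are near what all genes show. 

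**Figure D5:**
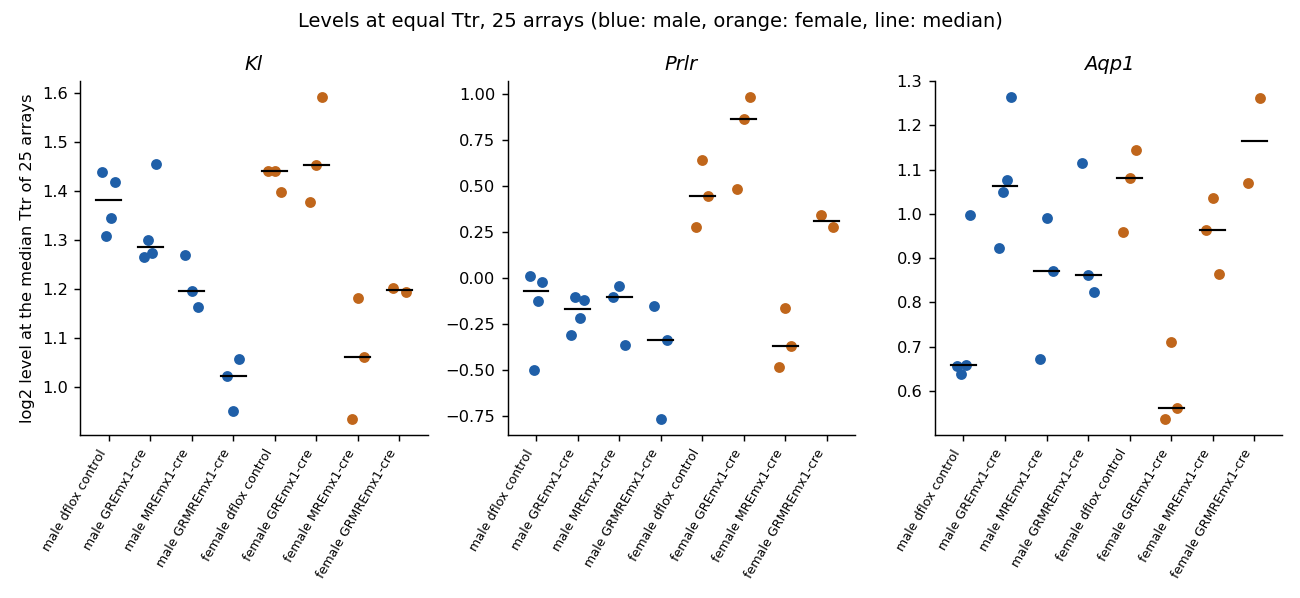
Log2 level of Kl, Prlr and Aqp1 (vertical axes, each with its own scale that does not start at 0) on the 25 high arrays, moved along the gene's slope to the median Ttr of 3.97; points are arrays, blue for male and orange for female, and lines are group medians. Kl lies lower in both sexes of MREmx1-cre and GRMREmx1-cre than in controls, and Prlr lies higher in females except in MREmx1-cre.

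Last, Ttr was added to the model to see how far the genotype calls of all genes changed with its level taken into account. With Ttr as covariate, GREmx1-cre had 1791 calls, against 1760 without it, and 1722 genes were in both. MREmx1-cre had 5107 against 5053, with 4868 in both, and GRMREmx1-cre 5610 against 5402, with 5201 in both. Every gene called in both had the same direction. Of the genes called without the covariate, 15, 70 and 124 were among the 948 that moved with Ttr. That is 0.852%, 1.39% and 2.30% of the calls, where 4.12% of all genes moved with Ttr. It is 1.58%, 7.38% and 13.1% of the 948, where 7.64%, 21.9% and 23.5% of all genes were called. Genes that moved with Ttr were thus called less often than all genes, and the reason was not tested.

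The 5 genes with the largest lost calls in each comparison had slopes on Ttr between -0.06 and 0.12, none of which was called. Among those gained, Rspo4, a secreted activator of Wnt signalling, had a slope of 0.50. It was called in GREmx1-cre only with the covariate, at 0.76 ± 0.20 against 0.89 ± 0.62 without it, and likewise in MREmx1-cre, at 0.87 ± 0.20 against 0.46 ± 0.62. In GRMREmx1-cre, Kl, Dpep1, a membrane dipeptidase, and Defb11 were gained, with slopes of 0.55, 0.36 and 0.46. Dpep1 was at -0.71 ± 0.25 with the covariate and -1.09 ± 0.50 without it.

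Leaving out the 6 arrays changed more calls than the covariate did. The counts were then 1686, 4546 and 4558, with 1475, 4161 and 4138 genes shared with the fit of all arrays. All shared genes kept their direction. That fit has 25 samples in place of 31, and its losses included genes with slopes near 0, such as Nxnl1 at 0.02 and Gsta2 at -0.03.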

How the data were processed

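RNA of 31 hippocampi was hybridised in 1 colour (Cy3, from 500 ng of total RNA) per the labels' protocols. The deposited scanner files hold intensity values, the processed signal of Agilent Feature Extraction 12.0 per the submitters' processing notes, and the deposited value table matched the spot means of these files, within a relative tolerance of 0.001, in all 1276394 cells. Spots with outlier flags were left out, log2 intensity was averaged per probe and the log2 of the array's 75th percentile was subtracted. A probe was used where at least 1 group had 3 arrays well above background; 31005 probes and 23031 genes passed, each gene by its brightest probe. Gene symbols came from RefSeq accessions: 28223 of 41174 probes had 1 symbol, 12951 none. Tests used limma 3.58.1 in R 4.3.3 with 8 group means and Benjamini-Hochberg adjustment at 0.05, with the level of Ttr as covariate where stated. Nothing in the labels ties an array to 1 mouse beyond the design's count of 3 to 4 mice, so p-values measure the spread between these samples.

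The genes named in the text were all 10 plexus genes and, among other named genes, the 20 highest and 10 lowest correlations with Ttr. Also named were up to 4 genes of each list by the statistic of the slope and the 10 named genes with the largest within-group spread. Of up to 5 lost and 5 gained calls per comparison, a few are printed. The genes, lists and rules were chosen with earlier results of these data known. Tests on simulated data, with 23030 genes and Ttr as covariate, recovered 100% of 200 genes with a log2 change of 1 in GREmx1-cre. They also recovered 100% of 200 genes with a slope of 0.2. The changed genes were drawn only from those with a modest within-group spread, with independent noise. The 10 plexus genes, whose spread was far larger, were left out of that draw, so these shares do not apply to them. Arrays with the same replicate number did not deviate together (median correlation 0.03), so numbers were not treated as pairs. Alternatives were quantile normalization, normexp with an offset of 50, the deposited table, other filters and probe rules, array weights, a block for replicate, slide as a random block, other references in place of Ttr, each sex alone and leaving out each array. Leaving out the 6 low arrays and a normexp fit without spots whose background exceeded their signal were chosen after seeing the data.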

Additional observations from a re-analysis of the deposited data

Results flagged for a closer look

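A test for a single array far from the others of its group (Dixon's, in groups of 4) was run on the 10 plexus genes. The 7 groups of 4 arrays gave 70 tests, which singled out 5 values. Chance alone gives about 5% of independent tests, but these genes moved together, so the tests were not independent. Ttr was at -2.02 on female MREmx1-cre replicate 4, where the nearest array of the group was at 3.26. On male MREmx1-cre replicate 2, Ttr was at -2.58 with the nearest array at 3.94, Kl at -2.44 with the nearest at 1.24, and Kcne2 at -3.49 with the nearest at 1.86. Prlr was at -3.62 on female dflox control replicate 1, where the nearest array was at 0.10. These 3 arrays are among the 6 with low Ttr; in female GRMREmx1-cre, where 2 arrays were low, such a test cannot single out either.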

How the results depend on the processing

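No called value changed its sign. Uncalled differences of plexus genes between genotypes did: Ttr in GREmx1-cre, at 0.26, ran down to -0.07 under other settings and from -0.51 to 0.72 when 1 array was left out, and Ttr in MREmx1-cre, at -0.82, ran up to 0.01 and to 0.03 in the same way. Of the tests outside the fits that left out 1 array, 1024 kept their side of the threshold, 37 lost a call and 14 gained one. The counts of plexus genes called, 0 in each comparison of genotypes or sexes, were 0 under each alternative without Ttr as covariate. With it they were 2 in GRMREmx1-cre and 1 between the sexes, or 2 in MREmx1-cre, 1 in GRMREmx1-cre and 1 between the sexes without the 6 arrays. Normexp on all spots gave 115, 830 and 2379 calls with Ttr as covariate in GREmx1-cre, MREmx1-cre and GRMREmx1-cre, and 321 genes rising and 14 falling with Ttr. Here 3 to 16 spots on each of 5 arrays had a local background above their signal, by up to 65412, and the fitted background on these arrays was -804 to -30.6 against -0.33 to 6.84 on the others. With such spots left out, a setting added after this was seen, the counts were 1721, 5446 and 4981, with 760 rising and 69 falling. A filter for probes well above background on all 31 arrays tested fewer genes and gave 1050 calls in GREmx1-cre. Males alone, with 1 low array, had 127 genes rising and 18 falling. Leaving out each array in turn gave 757 to 910 rising and 44 to 149 falling: 149 without male MREmx1-cre replicate 2, 44 without female GREmx1-cre replicate 1 and 47 without female GRMREmx1-cre replicate 1. Calls with Ttr as covariate were then 1560 to 1886, 4605 to 5199 and 4732 to 5746, and plexus genes called 0. Prlr in GRMREmx1-cre was also not called with normexp, at -0.12, or at -0.37 without those spots, nor with the mean of Kl, Folr1, Kcne2 and Clic6 in place of Ttr, at -0.20; the cause was not tested. With that mean, which includes Kl, Aqp1 in GRMREmx1-cre was called, at 0.41. With normexp on all spots, calls were also lost for Prlr between the sexes, at 0.31, Prlr in female MREmx1-cre, at -0.63, Kl in female GRMREmx1-cre, at -0.55, and Aqp1 in female GREmx1-cre, at -0.56. Aqp1 in female GREmx1-cre was not called with quantile normalization, at -0.47, or without a filter, at -0.49, and Kl in male GRMREmx1-cre was not called without a filter, at -0.58. Kl in GRMREmx1-cre kept its call under all alternatives run over both sexes. The replicate block gave 1993, 5460 and 5776 calls, with 839 rising and 60 falling; it ended the calls of Aqp1 in female GREmx1-cre and of Kl in male GRMREmx1-cre, at -0.56, and no other call of these genes. The number of arrays, and signal near background on the low arrays, limit the precision of slopes.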
